A study of Mus musculus with 8 samples.

Results

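The 45 genes described here are immediate early and AP-1 response genes, the transcripts that cells switch on within minutes of a stimulus. They were chosen by gene family and role, after earlier results of these same data had shown that many of them stood higher in homozygous than in heterozygous ChiaRed+ cells. All 45 symbols were found among the 43432 gene rows of the count table, and 44 of them were among the 14906 genes with enough counts to be tested. Egr3 was the exception, with 5 counts in the first WT library, 1 in the first C/+ library and 0 in the other 6. None of the 44 passed the low-count filter through the C/C libraries alone. The filter threshold corresponded to 0.301 CPM (counts scaled to a common library total), and Fosl1 and Egr2 exceeded it in 6 libraries, Dusp2 in 5 and the remaining tested members in all 8.

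RNA sequencing had been done on 8 libraries of EpCAM+CD45- cells, that is, cells with an epithelial surface marker and without the leukocyte marker, sorted from lungs of C57BL/6J mice aged 14 weeks. The 3 WT libraries came from mice without the reporter and held every cell of that gate. The 3 C/+ and 2 C/C libraries came from mice with the ChiaRed allele on 1 or on both chromosomes, and held only the cells of that gate that were positive for ChiaRed, which marks cells expressing Chia1, the acidic mammalian chitinase (AMCase) gene. C/+ and C/C therefore share the reporter and the sort and differ in genotype, whereas both differ from WT in genotype and in the sort. The labels name no treatment, no sex and no count of animals, and do not say that libraries of a group came from separate mice, so p-values speak of the spread over these samples alone, which may in part be technical.

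Immediate early genes are transcribed from promoters that are already poised, mostly through phosphorylation of ternary complex factors at serum response factor (SRF) sites and of CREB at cyclic AMP response elements. FOS and JUN proteins pair as AP-1, EGR, NR4A and KLF proteins act as further transcription factors, and phosphatases such as DUSP1 and the mRNA decay factor ZFP36 shut the response down again. In lung, as in other tissues, these transcripts are also known to be induced while tissue is dissociated into single cells.

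The response is classically read out through a few short promoter elements, and stretches around them are shown for members in which a match was found. RefSeq promoter windows on GRCm38.p6, which run from 250 bases before to 50 bases after an annotated start, matched 36 of the 45 members. Egr1, Fosl1, Egr3, Zfp36l2, Klf10, Sik1, Ier2, Myc and Gem had no window and were not searched. Searched on both strands, the AP-1 site TGACTCA was found in F3 and Csrnp1, and the cyclic AMP response element TGACGTCA in Btg2, Maff, Dusp1 and Plk2. The CArG box, at which SRF binds, was found in Srf, Zfp36, Dusp5 and Egr2, and the EGR site GCGTGGGCG in Maff; none of the 4 was found in the windows of the other matched members. Of all 32851 windows of the same length, 5.2% held the AP-1 site, 1.79% the cyclic AMP response element, 1.63% a CArG box and 0.612% the EGR site. Some members had several windows, and of their 45 windows 2, 4, 7 and 1 held these motifs. None of the 4 motifs contains or overlaps another in the stretches printed. Each stretch is written 5′ to 3′ on the strand of its gene, with the motif matches in capitals; the coordinates are those of the stretch.
Srf, minus strand, chr17:46556185-46556274, 2 CArG boxes: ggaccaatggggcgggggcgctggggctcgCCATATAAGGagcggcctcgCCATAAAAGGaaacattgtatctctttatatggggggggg
Zfp36, minus strand, chr7:28379247-28379316, 1 CArG box: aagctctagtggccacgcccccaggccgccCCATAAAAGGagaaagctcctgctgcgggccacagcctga
Dusp5, plus strand, chr19:53529033-53529112, 2 adjoining CArG boxes: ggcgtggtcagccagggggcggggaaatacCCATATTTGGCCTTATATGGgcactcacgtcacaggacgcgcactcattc
Btg2, minus strand, chr1:134079284-134079351, 1 cyclic AMP response element: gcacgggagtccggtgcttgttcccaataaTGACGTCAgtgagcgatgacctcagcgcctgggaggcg
Maff, plus strand, chr15:79347402-79347528, an EGR site and a cyclic AMP response element: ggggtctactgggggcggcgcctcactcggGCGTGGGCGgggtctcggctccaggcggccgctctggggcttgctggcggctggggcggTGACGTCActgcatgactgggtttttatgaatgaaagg
F3, plus strand, chr3:121723372-121723438, 1 AP-1 site: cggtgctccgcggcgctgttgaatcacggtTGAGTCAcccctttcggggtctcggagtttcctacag
Csrnp1, minus strand, chr9:119983001-119983155, 2 AP-1 sites: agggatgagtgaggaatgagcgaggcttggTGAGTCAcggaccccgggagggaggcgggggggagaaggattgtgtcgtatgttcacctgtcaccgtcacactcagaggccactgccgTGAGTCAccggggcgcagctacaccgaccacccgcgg
In Srf, whose product occupies CArG boxes and which is itself a member, the 2 matches began 82 and 62 bases before the start. The 2 boxes of Dusp5 began 82 and 72 bases before it and touch each other, and that of Zfp36 began 58 bases before it. A match is a description of the letters only, and factor binding was not measured in these libraries. Only exact matches within the windows were sought, so variant sites and sites farther from the start would be missed.

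Libraries held 17057216 to 52319957 counts. At this depth counting error is larger for Egr2, Egr3, Fosl1, Dusp2, Nr4a3 and Dusp5 than for most other members. Dusp5 was counted 45, 38 and 94 times in the WT libraries. Chia1 was counted 63 and 14 times in the C/C libraries and 3795 to 22881 times in each of the others. All libraries were dominated by alveolar type 2 cell transcripts, with 8 markers (among them Sftpc) summing to 180481 to 248824 CPM, scaled by TMM factors. Of the leukocyte list, Lyz2, which type 2 cells also express, made up nearly all, while Ptprc (CD45) stayed at or below 1.80 CPM and Cd3e at or below 0.0558 CPM. C/+ libraries held more club, endothelial, mesothelial and mesenchymal transcripts than the others: the 12 endothelial markers summed to 625 to 1026 CPM in C/+, 259 to 431 CPM in WT and 214 to 245 CPM in C/C. The 6 club markers summed to 5118 to 9511 CPM in C/+, 459 to 1108 CPM in WT and 490.1 to 719 CPM in C/C. In bulk libraries, fewer cells of a type and less RNA per cell cannot be told apart. Xist and Y-linked reads showed that WT 2, WT 3 and C/+ 1 came from males and the other 5 libraries, both C/C included, from females.

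As a whole the members stood highest in the 2 C/C libraries. Their summed level was 4241, 7287 and 10769 CPM in WT libraries 1, 2 and 3, 8360, 5383 and 5361 CPM in C/+ libraries 1, 2 and 3, and 19184 and 15167 CPM in C/C libraries 1 and 2. Both C/C sums thus lay above all 6 others, while WT and C/+ overlapped and WT itself spanned a wide range. Of the 44 tested members, 31 had both C/C libraries above every other library, as had 9.72% of all tested genes. The 13 others were Jun, Srf, Klf4, Ier3, Ier5, Dusp2, Dusp5, Dusp6, Zfp36l1, Zfp36l2, Btg1, Plk2 and Rhob. The members were chosen with many known to stand higher in C/C than in C/+, so these sums and counts are a description.

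**Figure D1:**
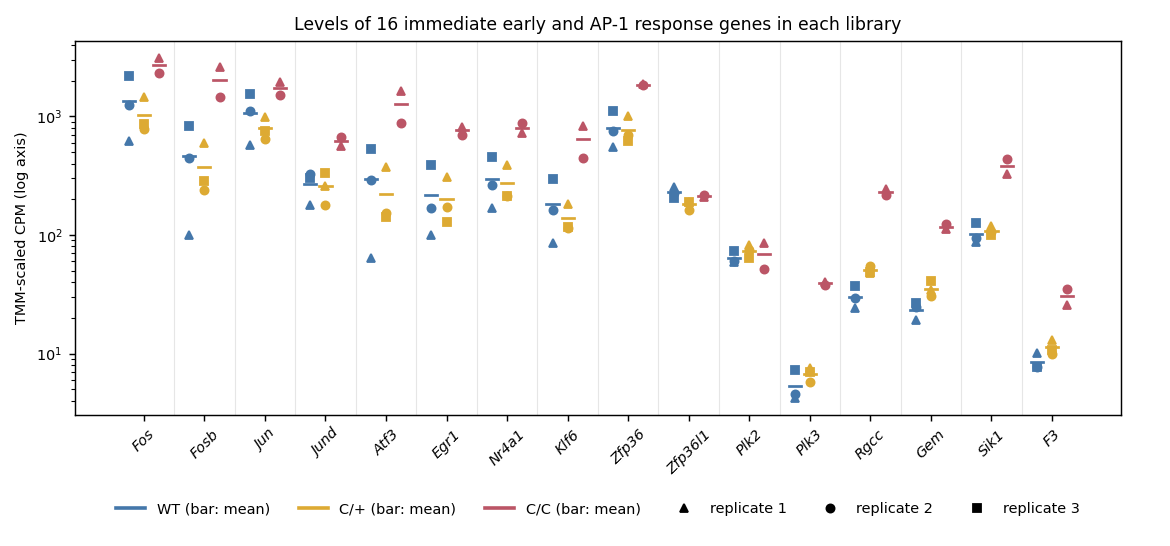
TMM-scaled CPM (log axis) of 16 members in each library; colours mark the groups, symbols the replicate numbers and bars the group means (3 WT, 3 C/+ and 2 C/C libraries). Plk3, Rgcc, Gem, Sik1 and F3 have all WT and C/+ points well below both C/C points, whereas Fos, Fosb, Jun, Atf3, Egr1 and Klf6 spread widely within WT.

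The contrast of C/C with C/+, which set the genotypes side by side in cells of the same sort, is the one that the members were chosen on, so its counts and fold changes are given as a description and nothing is read from them. In it 20 of 44 members were called higher (edgeR quasi-likelihood test, Benjamini-Hochberg adjusted p under 0.05 over all tested genes), against 1.75% of all tested genes. Called lower were 0 (0 also with an unadjusted p under 0.05 or with DESeq2), against 5.33%. The members' median log2 fold change was 1.08, beside -0.01 over all tested genes. The C/C libraries lay wholly above the C/+ libraries for 34 members, against 18.1% of all genes. Without C/+ 2 the count of member calls was 9, while calls over all tested genes went from 1056 to 728. Without C/C 1 or C/C 2, which leaves 1 C/C library, the members' median log2 fold change was 0.95 or 1.17.

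C/C compared with WT shares its C/C libraries with that contrast, so it is not independent of the choice of members, and it also compares the ChiaRed+ part with the whole gate. Here 18 of 44 members rose by edgeR, beside 1.62% of all tested genes called higher, and 0 fell (0 also with an unadjusted p under 0.05 or with DESeq2), beside 1.36%. The median log2 fold change was 1.08, and -0.03 over all tested genes. For 34 members both C/C libraries lay above all 3 WT libraries, against 20.8% of all genes. Without WT 1, WT 2 or C/+ 2 there were 10, 5 or 11 member calls. Calls over all tested genes then went from 444 to 407, 39 or 178. Without WT 3, C/+ 1 or C/+ 3 member calls numbered 17, 18 or 21, beside 281, 487 or 782 over all genes. With C/C 1 or C/C 2 left out, which leaves 1 C/C library, the members' median log2 fold change was 0.956 or 1.121. Under every left-out library and every other setting tried, 5 of the 18 remained called, and the same 5 of the 20 in the contrast with C/+: Plk3, Rgcc, Gem, Sik1 and F3. The other 13 of the 18 were no longer called when WT 2 was dropped. The 2 contrasts share the C/C libraries, and the members were chosen on C/C against C/+. That the same 5 appear in both is therefore a description and not a second line of support.

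C/+ compared with WT, in which neither group is C/C, gave 2 calls among the 44 members, Klf10 and Rgcc. Both rose, beside 3.42% of all tested genes called higher, and 0 members fell by edgeR (2 had an unadjusted p under 0.05, and DESeq2 called 1), beside 0.503%. The members' share of calls, 4.55%, was near the 3.92% of all genes. The median log2 fold change was -0.03, with 21 members above and 23 below 0. Neither call was kept under every setting. Without WT 2, C/+ 1 or C/+ 2 there were 0 member calls, while calls over all tested genes went from 585 to 127, 103 or 198. Without WT 3 there was 1 member call, Rgcc, beside 175 over all genes.

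**Figure D2:**
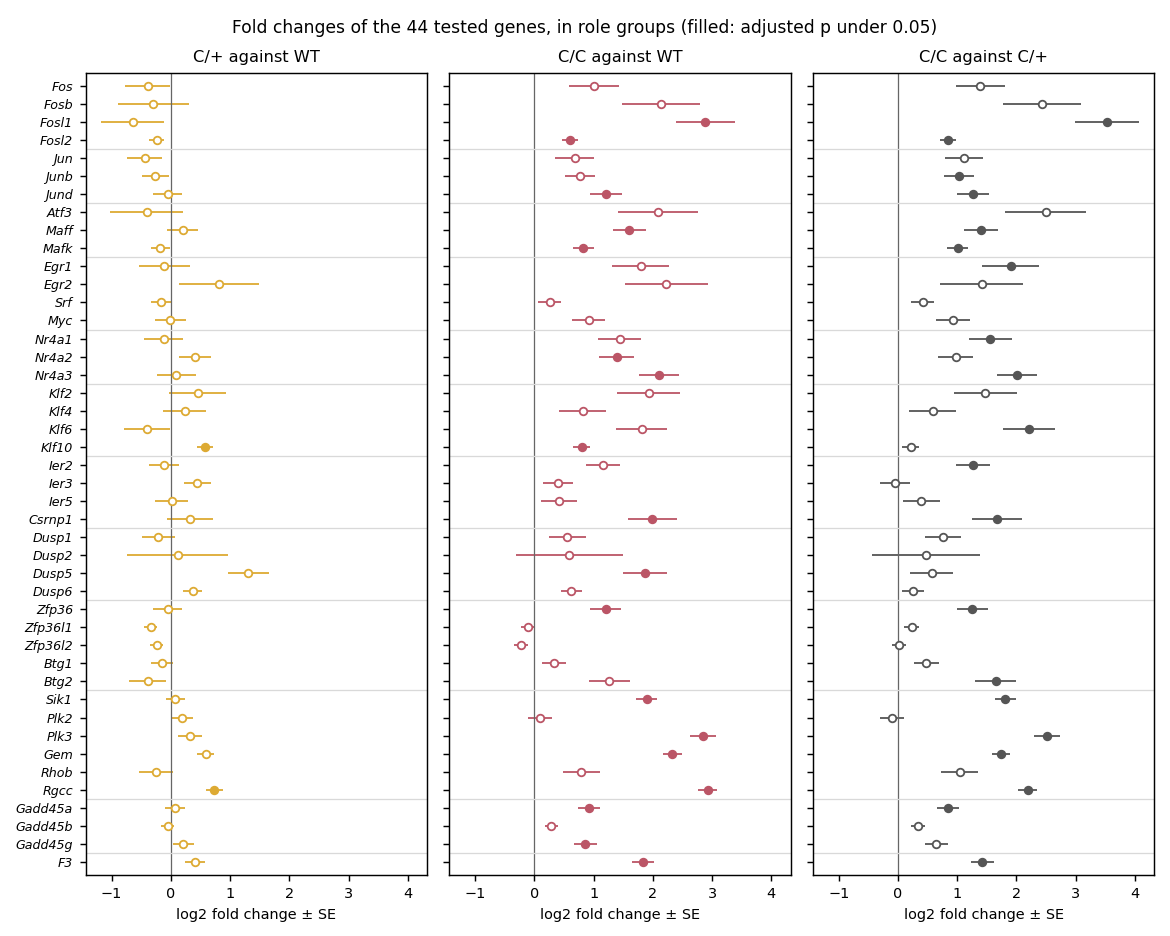
log2 fold changes with their standard errors for the 44 tested members in the 3 comparisons, ordered by role; filled points had an adjusted p under 0.05. Points of C/+ against WT scatter around 0 with 2 filled (Klf10 and Rgcc), while 42 of 44 lie above 0 in each comparison with C/C.

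The FOS family, the AP-1 subunits that cannot pair with themselves, differed in how far its 4 members stood apart. Values are given in the order of the replicate numbers. Fos, the archetype of an immediate early gene (ENSMUSG00000021250, chr12:85473890-85477273, plus strand, GRCm38), stood at 624, 1249 and 2188 CPM in WT, 1459, 785 and 858 CPM in C/+ and 3119 and 2311 CPM in C/C. The C/C libraries were the highest, but the lower of them exceeded the highest WT library only 1.06-fold. Fos was not called against WT (log2 fold change 1.0, SE 0.42, adjusted p = 0.194); against C/+ its log2 fold change was 1.39 (SE 0.42). Fosb stood at 101, 448 and 832 CPM in WT, 599.8, 240.02 and 287 CPM in C/+ and 2602 and 1452 CPM in C/C, and its WT libraries differed 8.24-fold. It too was not called against WT (log2 fold change 2.14, SE 0.66, adjusted p = 0.0958). Fosl1 (FRA-1), a late-rising subunit, was counted 10, 15 and 31 times in WT, 5, 7 and 9 times in C/+ and 172 and 137 times in C/C. These are few counts, yet both C/C libraries were at least 5.02-fold above every other library, and Fosl1 rose against WT (log2 fold change 2.89, SE 0.50, adjusted p = 0.0209). Of its exon bases 57.2% overlap Ccdc85b on the opposite strand, and the strand setting of the counting is not given in the sources used here, so the reads of the pair cannot be told apart. Fosl2 (FRA-2) stood at 36.97, 38.9 and 36.8 CPM in WT, 35.6, 31.6 and 27.99 CPM in C/+ and 63.9 and 50.2 CPM in C/C; its WT libraries were the closest together of all members, and it rose by the smallest step of the called genes (log2 fold change 0.60, SE 0.13, adjusted p = 0.0435).

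Among the JUN family, which can pair with each other as well as with FOS proteins, Jund was the one called against WT. Among the fits with a library left out, that call was kept only without C/+ 3. With a replicate block in the fit it was lost too. Jund stood at 179, 325 and 301 CPM in WT, 259.8, 180.2 and 335 CPM in C/+ and 566 and 671 CPM in C/C, with both C/C libraries above all others (log2 fold change 1.21, SE 0.27, adjusted p = 0.045 against WT). Of its exon bases 52.6% overlap Gm11175 on the opposite strand, which had only 5 to 55 counts in any library. Junb stood at 123, 189.6 and 256 CPM in WT, 198, 150.2 and 127 CPM in C/+ and 318 and 330.3 CPM in C/C and was not called against WT (log2 fold change 0.77, SE 0.26, adjusted p = 0.117), although its C/C libraries did not overlap the others. Jun stood at 574, 1112 and 1544 CPM in WT, 979, 649.8 and 753 CPM in C/+ and 1941 and 1502 CPM in C/C. Here WT 3 lay above the lower C/C library, and Jun was not called against WT (log2 fold change 0.68, SE 0.33, adjusted p = 0.252).

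Per kilobase of exon, Fos made up most of the FOS family transcripts in every library, and Fosb the second largest share. The Fosb share was 5.66% to 12.5% in WT, 10.2% to 13.3% in C/+ and 19.0% to 23.8% in C/C, so the C/C libraries lay above the others. The Fos share was 87.1% to 93.0% in WT, 86.1% to 88.9% in C/+ and 75.7% to 80.4% in C/C. Fosl1 and Fosl2 together stayed below the other two in all libraries, with Fosl1 at most 0.144% and Fosl2 at most 1.34%. Within the JUN family the groups overlapped: Jun made up 52.8% to 62.4% in WT, 47.9% to 56.0% in C/+ and 46.3% to 56.0% in C/C, with Jund the second and Junb the smallest part in every group mean. These shares were not tested.

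**Figure D3:**
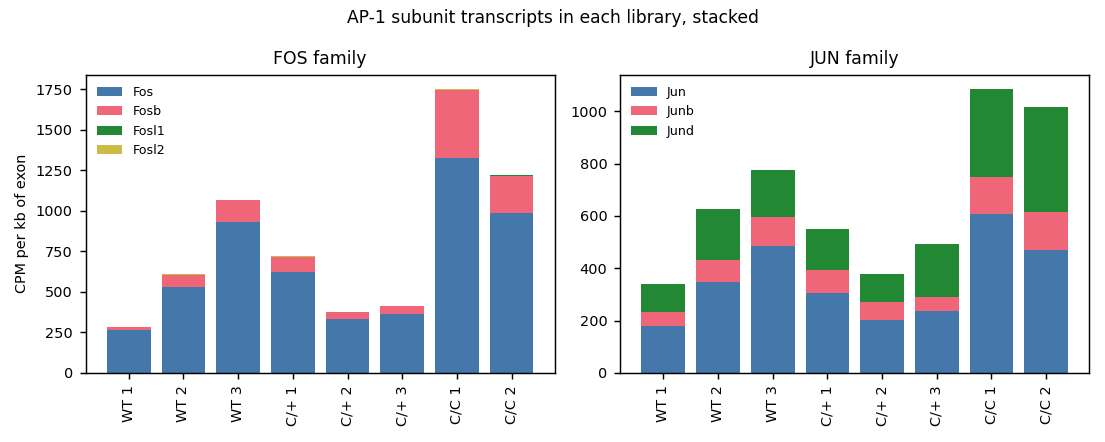
Level of each FOS family (left) and JUN family (right) transcript in CPM per kilobase of exon, stacked for each of the 8 libraries. The FOS bars are nearly all Fos and Fosb, with the Fosb part largest in the 2 C/C libraries; Fosl1 and Fosl2 are barely visible.

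Of the bZIP partners, Maff and Mafk, small MAF proteins that lack a transactivation domain, rose against WT, and Atf3, a stress-induced repressor, did not pass. Maff stood at 15.5, 25.05 and 27.7 CPM in WT, 32.8, 25.7 and 19.8 CPM in C/+ and 87.2 and 51.03 CPM in C/C (log2 fold change 1.60, SE 0.28, adjusted p = 0.0236 against WT). Mafk stood at 39.2, 50.7 and 54.8 CPM in WT, 47, 44.8 and 35.9 CPM in C/+ and 97.3 and 73.9 CPM in C/C (log2 fold change 0.83, SE 0.17, adjusted p = 0.0382). Both had their 2 C/C libraries above all others. Atf3 stood at 63.9, 293 and 534 CPM in WT, 375, 153 and 142 CPM in C/+ and 1637 and 886 CPM in C/C, an 8.35-fold difference between the lowest and the highest WT library, and was not called (log2 fold change 2.09, SE 0.68, adjusted p = 0.109).

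In the EGR, SRF and MYC group 0 of 4 tested genes were called against WT by edgeR (3 had an unadjusted p under 0.05, and DESeq2 called 2). Egr1, a zinc-finger factor induced through SRF sites, stood at 99.7, 169.7 and 388 CPM in WT, 308, 171 and 129.9 CPM in C/+ and 819 and 701 CPM in C/C. Both C/C libraries were above the rest, the lower one 1.81-fold above the highest other library, while WT spanned 3.89-fold (log2 fold change 1.79, SE 0.48, adjusted p = 0.0704); against C/+ the log2 fold change was 1.90 (SE 0.48). Egr2 was scarce, at 0.181, 0.0949 and 0.7996 CPM in WT, 0.947, 0.606 and 0.471 CPM in C/+ and 2.18 and 1.49 CPM in C/C (log2 fold change 2.23, SE 0.70, adjusted p = 0.1). Myc stood at 3.22 to 5.65 CPM in WT and C/+ and at 9.202 and 6.75 CPM in C/C (log2 fold change 0.92, SE 0.28, adjusted p = 0.0945). Srf itself, which encodes the factor at the CArG boxes, stood at 52.3, 64.4 and 67.5 CPM in WT, 63.9, 60.04 and 40.2 CPM in C/+ and 83.2 and 63.3 CPM in C/C; the groups overlapped and it was not called (log2 fold change 0.26, SE 0.20, adjusted p = 0.488).

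The NR4A receptors, orphan nuclear receptors whose activity is set mainly by how much is made, were higher in both C/C libraries than in any other. Nr4a1 (Nur77), which made up 95.4% to 98.4% of the family per kilobase of exon in every library, stood at 167, 265 and 458 CPM in WT, 390.5, 213 and 215 CPM in C/+ and 724 and 884 CPM in C/C and was not called against WT (log2 fold change 1.44, SE 0.37, adjusted p = 0.0635). Nr4a2 stood at 5.45, 9.44 and 8.18 CPM in WT, 12.3, 6.904 and 11.3 CPM in C/+ and 15.4 and 24.7 CPM in C/C and rose (log2 fold change 1.39, SE 0.29, adjusted p = 0.0392). Nr4a3 stood at 1.29, 0.854 and 0.855 CPM in WT, 0.849, 1.17 and 1.24 CPM in C/+ and 4.93 and 3.73 CPM in C/C, with the lower C/C library 2.88-fold above the highest other one (log2 fold change 2.10, SE 0.34, adjusted p = 0.0171). Nr4a3 was the only member lower in each male than in each female library of WT and C/+.

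Of the KLF zinc-finger factors 1 was called against WT, Klf10, which is induced by TGF-beta. Klf10 stood at 15.4, 11.1 and 13.3 CPM in WT, 21.2, 19.5 and 19.2 CPM in C/+ and 22.6 and 23.8 CPM in C/C, so that C/+ and C/C lay close together and both above WT. It rose in C/+ (log2 fold change 0.58, SE 0.13, adjusted p = 0.0412) and in C/C (log2 fold change 0.80, SE 0.15, adjusted p = 0.0277) against WT, and its log2 fold change between C/C and C/+ was 0.22 (SE 0.15). Klf6 stood at 85.8, 163 and 299 CPM in WT, 183, 115 and 117 CPM in C/+ and 837 and 447 CPM in C/C; its C/C libraries were above the rest but it was not called against WT (log2 fold change 1.81, SE 0.43, adjusted p = 0.052). Klf2 (130.5 and 56.7 CPM in C/C, 10.5 to 53.3 CPM elsewhere) and Klf4 (81.05 and 50.4 CPM in C/C, 20.4 to 65.0 CPM elsewhere) were not called in any comparison. Klf2 is known for its role in endothelium; endothelial markers summed to 259 to 431 CPM in WT, 625 to 1026 CPM in C/+ and 214 and 245 CPM in C/C, and their part in its level was not tested.

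Csrnp1, a nuclear protein first found as an AXIN1-induced gene, was the called member of the IER and CSRNP group. It stood at 8.84, 24.6 and 28.5 CPM in WT, 36.5, 22.9 and 17.4 CPM in C/+ and 96.9 and 67.2 CPM in C/C (log2 fold change 1.99, SE 0.42, adjusted p = 0.0391 against WT), with both C/C libraries above the rest. Ier2 stood at 117, 189 and 276 CPM in WT, 219.9, 164 and 154 CPM in C/+ and 397 and 467 CPM in C/C; it did not overlap either but missed the threshold (log2 fold change 1.16, SE 0.28, adjusted p = 0.0573). Ier3 and Ier5 did not follow: Ier3 stood at 26.3, 43.3 and 44.2 CPM in WT, 61.6, 57.8 and 34.9 CPM in C/+ and 50.8 and 49.4 CPM in C/C, highest in C/+ 1, and Ier5 had 1 C/C library at 46.3 CPM and the other at 27.0 CPM, within the WT range of 19.6 to 34.6 CPM.

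MAPK phosphatases, which end ERK, JNK and p38 signalling, gave 1 call among 4 tested against WT and 0 against C/+ (1 had an unadjusted p under 0.05, and DESeq2 called 0). Dusp1, a nuclear phosphatase and a common measure of this response, stood at 282, 473 and 642 CPM in WT, 552, 359 and 298 CPM in C/+ and 693 and 674 CPM in C/C, so that the lower C/C library was 1.05-fold above WT 3 (log2 fold change 0.55, SE 0.31, adjusted p = 0.327). Dusp5, a nuclear ERK phosphatase, stood at 1.16, 1.803 and 1.75 CPM in WT, 4.57, 2.33 and 4.71 CPM in C/+ and 7.297 and 4.17 CPM in C/C. Its C/+ and C/C libraries overlapped each other and all 5 exceeded WT; it rose in C/C (log2 fold change 1.87, SE 0.37, adjusted p = 0.034) and was not called in C/+ (log2 fold change 1.30, SE 0.35, adjusted p = 0.0664). Dusp6, a cytoplasmic ERK phosphatase, stood at 47.9 to 75.8 CPM in WT, 73.5 to 86.4 CPM in C/+ and 109 and 81.6 CPM in C/C (log2 fold change 0.62, SE 0.18, adjusted p = 0.0868). Dusp2 had at most 0.688 CPM in any library. In Dusp5 22.1% of exon bases lie opposite another gene.

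Among the mRNA decay and antiproliferative factors, Zfp36 was the one called against WT. Zfp36 (tristetraprolin), which binds AU-rich elements and speeds the decay of the mRNAs that hold them, stood at 546, 757 and 1102 CPM in WT, 999.97, 694 and 622 CPM in C/+ and 1859 and 1831 CPM in C/C, with both C/C libraries above the rest (log2 fold change 1.20, SE 0.26, adjusted p = 0.0428). Zfp36l1 stood at 256, 227 and 205 CPM in WT, 188, 164 and 191 CPM in C/+ and 207 and 218 CPM in C/C, highest in WT 1, the library in which Zfp36 was lowest, and was not called (log2 fold change -0.11, SE 0.12, adjusted p = 0.644). Of its exon bases 55.9% lie opposite Gm26669, which had 1 to 145 counts. Zfp36l2 lay between 22.99 and 31.4 CPM in all libraries (log2 fold change -0.22, SE 0.12, adjusted p = 0.311). Btg2, an antiproliferative p53 target that recruits deadenylases, stood at 225, 357 and 532 CPM in WT, 389.9, 277 and 185 CPM in C/+ and 1022 and 764 CPM in C/C, with both C/C libraries above the rest and no call against WT (log2 fold change 1.27, SE 0.34, adjusted p = 0.0727). Btg1 lay between 51.2 and 111 CPM over all libraries, with groups overlapping.

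Of the 6 kinases, small GTPases and cell cycle regulators, 4 rose in C/C against WT, and these 4 kept their call under every setting tried. Rgcc, a regulator of the cell cycle and of CDK1 that responds to complement (ENSMUSG00000022018, chr14:79288756-79301645, minus strand, GRCm38), stood at 24.1, 29.5 and 37.3 CPM in WT, 47.7, 55.1 and 48.5 CPM in C/+ and 242 and 219 CPM in C/C. The 3 groups formed 3 separate steps, with the lower C/C library 3.97-fold above the highest of the others. Rgcc rose in C/+ (log2 fold change 0.73, SE 0.15, adjusted p = 0.0252) and in C/C (log2 fold change 2.93, SE 0.16, adjusted p = 3.96e-05) against WT. Plk3, a polo-like kinase of the stress response, stood at 4.27, 4.602 and 7.27 CPM in WT, 7.51, 5.78 and 7.06 CPM in C/+ and 40.4 and 37.7 CPM in C/C. WT and C/+ overlapped and the lower C/C library was 5.02-fold above all of them (log2 fold change 2.84, SE 0.22, adjusted p = 0.000229 against WT). Gem, a small GTPase that restrains calcium channels, stood at 19.2, 24.8 and 26.5 CPM in WT, 34.5, 30.5 and 40.99 CPM in C/+ and 111 and 124 CPM in C/C. It rose in C/C (log2 fold change 2.33, SE 0.16, adjusted p = 8.17e-05), and in C/+ it lay above WT in every library without passing the threshold (log2 fold change 0.59, SE 0.15, adjusted p = 0.052).

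Sik1, a salt-inducible kinase and a CREB target that restrains CREB coactivators, stood at 87.95, 95.2 and 125 CPM in WT, 118, 107 and 101 CPM in C/+ and 325 and 439 CPM in C/C (log2 fold change 1.89, SE 0.17, adjusted p = 0.000539 against WT). Its 6 WT and C/+ libraries lay between 87.95 and 125 CPM, and both C/C libraries were at least 2.59-fold above the highest of them. The other 2 of the group did not follow. Plk2, the paralog of Plk3, stood at 59.8, 60.4 and 73.2 CPM in WT, 83.04, 74.03 and 64.2 CPM in C/+ and 85.9 and 51.7 CPM in C/C, with the highest and the lowest value of all libraries both in C/C (log2 fold change 0.09, SE 0.20, adjusted p = 0.829). Rhob, a small GTPase, stood at 108, 198 and 234 CPM in WT, 192, 136 and 124 CPM in C/+ and 391 and 232 CPM in C/C; 1 C/C library was at the level of WT 3 (log2 fold change 0.79, SE 0.31, adjusted p = 0.172).

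Of the GADD45 stress sensors, which bind CDK1 and activate MEKK4, Gadd45a and Gadd45g rose against WT and Gadd45b did not pass. Gadd45g stood at 29.7, 47.2 and 39.8 CPM in WT, 35.3, 51.7 and 47.8 CPM in C/+ and 69.9 and 70.7 CPM in C/C (log2 fold change 0.86, SE 0.19, adjusted p = 0.046). Gadd45a stood at 19.3, 26.7 and 23.1 CPM in WT, 22.9, 19.4 and 30.1 CPM in C/+ and 46.6 and 40.2 CPM in C/C (log2 fold change 0.92, SE 0.19, adjusted p = 0.037), with 19.1% of exon bases opposite another gene. Gadd45b stood at 35.8, 42.4 and 37.3 CPM in WT, 37.5, 36.1 and 37.6 CPM in C/+ and 51.1 and 42.8 CPM in C/C, the smallest step of the 3 (log2 fold change 0.29, SE 0.12, adjusted p = 0.182). F3, tissue factor, the cell-surface starter of coagulation and an AP-1 target, stood at 10.1, 7.78 and 7.74 CPM in WT, 13.2, 9.94 and 10.8 CPM in C/+ and 25.95 and 35.03 CPM in C/C. Its 6 WT and C/+ libraries lay between 7.74 and 13.2 CPM, and both C/C libraries lay at least 1.97-fold above the highest of them. F3 rose against WT (log2 fold change 1.83, SE 0.19, adjusted p = 0.00152).

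The members differed in how much they varied between libraries of 1 group. Within WT the median range was 0.77 on the log2 scale for the members and 0.36 for all tested genes, with 39 of 44 members above the latter. Within C/+ it was 0.67 beside 0.41 (32 of 44 above), and within C/C 0.40 beside 0.17 (33 of 44 above). In WT, 28 of 44 members were lowest in WT 1 and highest in WT 3, an order held by 18.6% of all tested genes, and in C/+, 32 were highest in C/+ 1 (34.2% of all genes). In C/C, 33 were higher in C/C 1 than in C/C 2 (50.5% of all genes). Thus libraries within a group differed in the same direction for most members.

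Sex was read from the counts and moved with this within-group spread. Among WT and C/+, 18 of 44 members had every male library above every female one, beside 6.48% of all tested genes, and among them were Fos, Fosb, Jun, Junb, Atf3, Nr4a1, Klf6, Dusp1 and Zfp36. The opposite held for Nr4a3 alone, beside 5.53% of all genes. Both C/C libraries were female. WT 1 was the only female WT library and C/+ 1 the only male C/+ library. Sex therefore cannot be told apart from other differences between single libraries. As both C/C libraries were female, a sex term in the fit rests on the WT and C/+ libraries alone. With sex as a term in the fit, 29 members were called between C/C and C/+ (1200 of all 14906 tested genes). Between C/C and WT 35 members were called (1348 of all genes), and between C/+ and WT 7 (1700 of all genes). Among the female libraries alone the counts were 30, 31 and 1, with 1 WT library.

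Setting each member's range over the 3 WT libraries beside its difference of C/C from C/+, which share no library, gave different pictures for different members. For Plk3, Rgcc, Gem, Sik1, F3, Fosl1 and Nr4a3 the C/C difference was far larger than the WT range: 2.52 beside 0.76 for Plk3, 2.19 beside 0.63 for Rgcc, 1.74 beside 0.47 for Gem and 1.42 beside 0.38 for F3 on the log2 scale. For Fos, Fosb, Jun, Atf3, Klf2 and Dusp1 the WT range was the larger: 1.81 beside 1.43 for Fos, 3.04 beside 2.49 for Fosb and 3.06 beside 2.58 for Atf3. The members were chosen on the difference of C/C from C/+, so these values are a description.

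**Figure D4:**
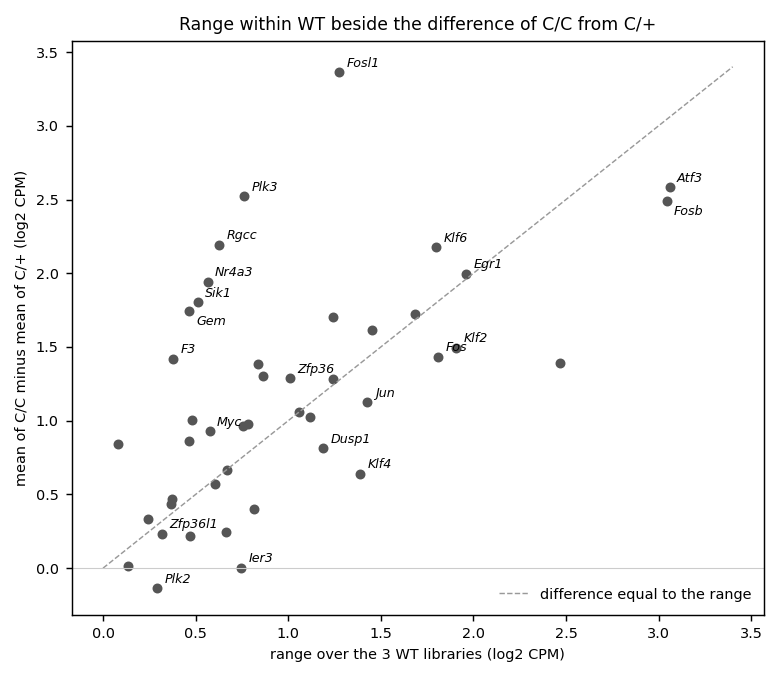
Each point is 1 of the 44 tested members: its range over the 3 WT libraries (x axis, log2 CPM) beside the difference of the C/C mean from the C/+ mean (y axis, log2 CPM). Points above the dashed line, such as Plk3, Rgcc and Gem, differ more between C/C and C/+ than the WT libraries do among themselves; Fosb and Atf3 lie below it at the right.

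Other genes of the pathway were taken from lists of upstream machinery, partners and other rapid-response genes. Transcripts of the MAPK, CREB and SRF machinery, which signals to the members mainly through phosphorylation, summed to 2264 to 2442 CPM in all 8 libraries. Of 36 such genes, edgeR called 0 higher in C/C than in C/+ (2 had an unadjusted p under 0.05, and DESeq2 called 1 higher) and 1 lower, Elk3, a ternary complex factor, at 40.9 and 41.7 CPM beside 59.05, 60.8 and 52.2 CPM. Against WT, edgeR called 0 in C/C (5 had an unadjusted p under 0.05, and DESeq2 called 1) and 0 in C/+ (6 and 1). Mapk3 (ERK1) stood at 242, 281 and 281 CPM in WT, 303, 289 and 279 CPM in C/+ and 284 and 294 CPM in C/C, with both C/C libraries above WT and within the range of C/+, and was not called in any comparison. Of 11 tested AP-1 partners and EGR corepressors, 1 was called, Nfe2l2 (NRF2), higher in C/C than in C/+ at 334 and 363 CPM beside 199, 214 and 286 CPM; its call was not kept when libraries were scaled by total counts alone.

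Of 41 other rapid-response genes tested, 16 were called higher and 1 lower in C/C than in C/+, 13 higher in C/C than in WT, and 2 higher in C/+ than in WT. Over all tested genes the shares were 1.75% higher and 5.33% lower, 1.62% higher, and 3.42% higher. Between C/+ and WT the list's share of calls, 4.88%, was near the 3.92% of all genes. Errfi1 (MIG6), a feedback inhibitor of EGFR, stood at 450.5, 419 and 405 CPM in WT, 392, 534 and 537 CPM in C/+ and 1113 and 1211 CPM in C/C (log2 fold change 1.45, SE 0.14, adjusted p = 0.00114 against WT). Per1, a clock gene that is also induced acutely through CREB, stood at 33.8, 41.6 and 52.3 CPM in WT, 53.9, 81.3 and 60.6 CPM in C/+ and 221 and 214 CPM in C/C (log2 fold change 2.35, SE 0.19, adjusted p = 0.000276). Mcl1, an antiapoptotic BCL2 relative, stood at 229, 285 and 345 CPM in WT, 314, 249 and 261 CPM in C/+ and 615 and 395 CPM in C/C and was called against C/+ but not against WT (log2 fold change 0.82, SE 0.21, adjusted p = 0.0618). Called lower in C/C than in C/+ was Id1, an inhibitor of bHLH factors, at 10.2 and 13.2 CPM beside 32.2, 25.7 and 25.6 CPM. Between these groups 11 of 12 endothelial, 5 of 6 club, 6 of 7 mesothelial and 6 of 9 tested mesenchymal markers were also called lower. The part of these cells in the calls of Id1 and Elk3 was not tested. The 2 that rose in C/+ were Sgk1 (8.89, 11.7 and 8.405 CPM in WT, 30.7, 24.2 and 16 CPM in C/+) and Spry4 (5.14, 4.41 and 3.998 CPM in WT, 16.2, 10.03 and 8.998 CPM in C/+). In the same comparison 11 of 12 endothelial, 5 of 6 club, 5 of 7 mesothelial and 5 of 9 tested mesenchymal markers rose, and the part of these cells in the 2 calls, and in those of Klf10 and Rgcc, was not tested.

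Heat shock genes, a separate stress response, were also highest in C/C as a sum. The list of 12, cytosolic but for the mitochondrial chaperones Hspd1 and Hspe1, summed to 3725 and 2219 CPM in C/C, 1164 to 1191 CPM in C/+ and 1321 to 1816 CPM in WT. Of the 12, 10 (all but Hspd1 and Hspe1) were called higher in C/C than in C/+, 7 rose in C/C against WT and 0 were called between C/+ and WT (4 had an unadjusted p under 0.05, and DESeq2 called 1). Over all tested genes 1.75% were called higher in C/C than in C/+ and 1.62% in C/C than in WT. Hsp90ab1 stood at 994, 908 and 1005 CPM in WT, 698, 724 and 721 CPM in C/+ and 1337 and 1041 CPM in C/C, and Hspa8 at 336, 133 and 147 CPM in WT, 168, 193 and 189.6 CPM in C/+ and 492 and 409.6 CPM in C/C. Hspa1a stood at 49.6, 16.4 and 27.6 CPM in WT, 22.7, 4.67 and 3.71 CPM in C/+ and 510.4 and 165 CPM in C/C; it has a near-identical copy, Hspa1b, and how reads shared by both were counted is not given in the sources used here. Within WT the order differed from that of the members: the heat shock sum was highest in WT 1, where the members' sum was lowest. The part of this response in the members' levels was not tested. Of 10 reference genes, Actb (1045, 1172 and 1178 CPM in WT, 1356, 1142 and 1172 CPM in C/+ and 1915 and 1726 CPM in C/C) and Gapdh were called higher in C/C than in C/+ and Actb and Ywhaz against WT. Scaling by total counts alone put the median log2 fold change of all genes at -0.13 between C/C and C/+ and at -0.20 between C/C and WT; the members' medians were then 0.96 and 0.92, with 19 and 17 calls. The log2 fold change of Actb in C/C was above 0 under each of the 3 scalings, against both C/+ and WT.

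**Figure D5:**
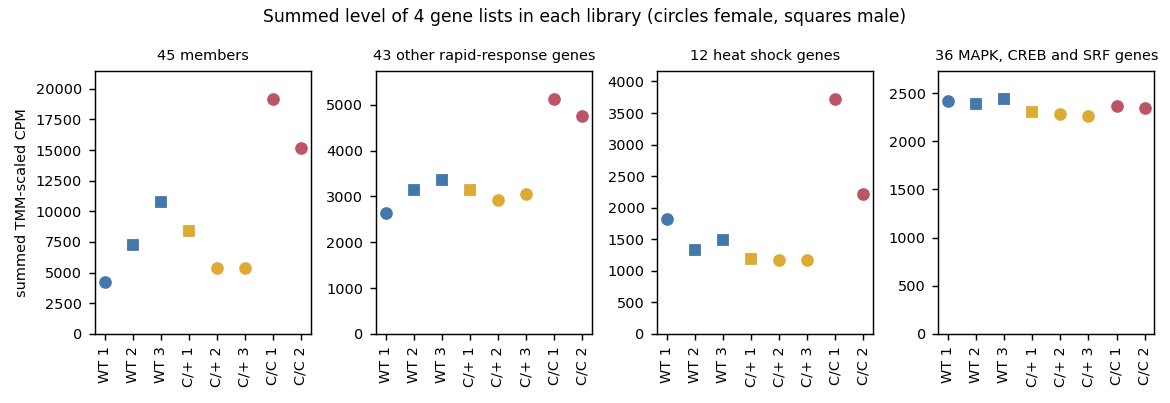
Summed CPM in each library for the 45 members, 43 other rapid-response genes, 12 heat shock genes and 36 genes of the upstream machinery; circles are female and squares male, colours mark WT, C/+ and C/C. The first 3 sums are highest in both C/C libraries, while the machinery stays between 2264 and 2442 CPM.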

How the data were processed

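The authors deposited 1 table of read counts: whole numbers, not normalised, for 43432 mouse Ensembl identifiers in 8 libraries, with 17057216 to 52319957 counts each. Per the labels' protocols, total RNA was column-purified with DNase treatment and made into stranded mRNA libraries. The submitters' processing notes name STAR 2.4.2a and DESeq2 without their role, and GRCh38, a human build. The counter, its strand setting, multi-mapping rule and annotation were not given in the sources used here. Symbols (42462 identifiers), exon lengths and positions came from the GENCODE M21 annotation of GRCm38, and promoter windows from RefSeq.

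Genes were filtered with filterByExpr by group (14906 kept) and libraries scaled by TMM factors (0.915 to 1.06). A single edgeR 4.0.16 (R 4.3.3) quasi-likelihood model over all 8 libraries had 1 mean for each group, so that groups of 3 and 2 share 1 estimate of the spread. Groups were compared pairwise by two-sided F tests. A gene was called where its p, adjusted over all tested genes after Benjamini and Hochberg, was under 0.05. SEs are on the log2 scale. CPM in the text are TMM-scaled; log2 CPM for ranges used a prior count of 2.

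Members and lists were chosen with earlier results of these data known. Values in every library are printed for Fos, Egr1, Plk3 and Rgcc, for up to 3 called members per role group with the largest fold changes and for the member with the highest mean CPM; from other lists up to 3 called genes, or 2 where none was called, were to be named by mean CPM, and other named genes were picked after their values were seen. The fit was tested on simulated data with known changes before use. Libraries of a group differed beyond sampling noise (11.6 to 68.6 chi-square units per gene), so none was a copy of another. Alternative settings comprised scaling by DESeq2 size factors or by total counts alone, the Wald test of DESeq2 1.42.0, dropping the low-count filter or asking for 1 CPM in 5 libraries, fitting only the groups compared, a replicate block, sex as a covariate and leaving out each library; female libraries alone were added after the data were seen. Genes that failed the filter were left out of the tests.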

Additional observations from a re-analysis of the deposited data

How the results depend on the processing

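Directions of called members did not reverse under any alternative run. Between C/C and C/+, 20 members were called; DESeq2 size factors, total counts alone, the DESeq2 test, 1 CPM in 5 libraries, the compared groups alone, sex as a covariate and female libraries alone gave 16 to 30, and no low-count filter gave 31. Between C/C and WT, 18 were called, 7 with the replicate block, 35 with no low-count filter, 35 with sex as a covariate and 31 among female libraries alone. Between C/+ and WT, 2 were called, 1 with total counts alone, 5 by DESeq2, 4 with no low-count filter, 0 with the compared groups alone, 7 with sex as a covariate and 1 among female libraries alone. Leaving out each library in turn gave 5 to 27, 5 to 21 and 0 to 2 calls. Where a group keeps 1 library, that library is assumed to vary like the others. The counts moved with the libraries in the fit; the cause was not tested.

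Replicate numbers are shared between groups in the titles. The correlation of deviations of same-numbered libraries was -0.206 to 0.087 over all genes and -0.588 to 0.460 over the members. Deviations were taken from group means of few libraries, so these values cannot show whether same-numbered libraries were handled together. With the replicate block, 15, 7 and 2 members were called between C/C and C/+, C/C and WT, and C/+ and WT.

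Over the whole table the calls in these comparisons numbered 1056, 444 and 585, and 1609, 1470 and 1270 by DESeq2, 1614, 1456 and 1299 with no low-count filter, and 862, 625 and 58 among female libraries alone. The replicate block gave 176 and sex as a covariate 1348 between C/C and WT, and sex 1700 and the compared groups alone 356 between C/+ and WT. Scaling by total counts alone gave 1229 between C/C and WT. It moved the split there from 241 higher and 203 lower to 149 and 1080, between C/C and C/+ from 261 and 795 to 126 and 1019, and between C/+ and WT from 510 and 75 to 449 and 161. Leaving out each library gave 185 to 1308, 30 to 782 and 103 to 729. Depth limits Egr2, Egr3, Fosl1, Dusp2 and Nr4a3, and in part Dusp5. For most other members the limit is the spread between 2 or 3 libraries.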
